A study of Mus musculus with 44 samples.

Results

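Glutamate receptors and their auxiliary subunits were followed in the dorsal hippocampus of WT and Kdm5b mutant mice before and after contextual fear conditioning. The 30 genes were taken by symbol from the 27179 genes counted, and fall into 7 classes. There are 4 AMPA receptor subunits (Gria1 to Gria4), 6 NMDA receptor subunits (Grin1, Grin2a to Grin2d and Grin3a), 5 kainate receptor subunits (Grik1 to Grik5), 1 delta receptor (Grid1), 6 metabotropic receptors (Grm2, Grm3, Grm4, Grm5, Grm7 and Grm8), 6 AMPA auxiliary subunits (Cacng2, Cacng3, Cacng4, Cacng8, Cnih2 and Cnih3) and 2 kainate auxiliary subunits (Neto1 and Neto2). All 30 passed the filter on low counts in every comparison. The gene choice used no measured value of these libraries, but was made with earlier results from them known.

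The counts come from 36 libraries, 1 mouse each, with 6 mice in each of the 6 groups, of which 3 are male and 3 female by their labels. WT and homozygous mutant (Kdm5bDARID/DARID) mice were F2 animals of a cross of C57BL/6J with 129S2/Sv. The mutant allele lacks exons that encode part of the JmjN domain and the whole ARID domain, in every cell and from conception, so effects on development and on the adult response cannot be told apart. Mice at 0 h were naive home cage animals, and mice at 1 h and 3 h were killed that long after training with 3 foot shocks of 0.7 mA. By the study's methods the mice were 7 to 8 weeks of age at tissue collection. The 0 h mice were not placed in the chamber, so chamber exposure, handling and shock cannot be told apart in a time comparison.

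Ionotropic glutamate receptors are cation channels built from 4 subunits. AMPA receptors carry most fast excitation, NMDA receptors admit calcium when glutamate and depolarization coincide and are needed for many forms of hippocampal plasticity, and kainate receptors modulate release and excitability, above all at mossy fiber synapses. Metabotropic receptors couple to G proteins: Grm5 belongs to the group that raises intracellular calcium, while Grm2 and Grm3 and, in another group, Grm4, Grm7 and Grm8 lower cAMP and mostly restrain transmitter release. Auxiliary subunits, which do not form the pore, set the trafficking and gating of the channels.

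Library totals ran from 40274435 to 107000233 counts. The lowest count of any of the 30 genes in any library was 255, on Grm8, and the highest 128843, on Gria1. Levels are given as CPM, counts scaled to library size with the trimmed mean of M-values (TMM), and per kb of exon where genes are compared. Kdm5b itself was at 86.4 ± 2.84 CPM in naive WT (mean ± SD, n = 6), and naive mutants had 80.5 ± 3.89 CPM (n = 6). Its count covers the gene outside the deleted exons too and does not check the genotype. In 2 libraries, labelled WT 1 h male 1 and mutant 3 h female 2, sex-linked transcripts went against the label. Both were kept under their labels, and the calls and the genes closest to a call are also given without them. Markers of hippocampal excitatory neurons were present in all libraries (Slc17a7, the main vesicular glutamate transporter there, at 1271 CPM or more). Marker sums for choroid plexus ran from 41.2 to 7752 CPM, those for thalamus from 30.4 to 118 CPM and those for striatum from 69.3 to 123 CPM. These are whole-tissue measurements, in which fewer cells of a type and less RNA per cell cannot be told apart.

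Levels per kb of exon spanned a wide range within the AMPA, NMDA, kainate, metabotropic and AMPA auxiliary classes, while the ranges of Neto1 and Neto2 overlapped. Cnih2, a cornichon protein that escorts AMPA receptors from the endoplasmic reticulum, had the highest level, 431 CPM per kb. Its annotation overlaps that of Yif1a. Gria1, the subunit that is recruited in long-term potentiation, followed at 203 CPM per kb, Cacng8, the TARP (transmembrane AMPA receptor regulatory protein) typical of hippocampus, at 89.2 CPM per kb, and Gria2, whose edited form makes AMPA receptors impermeable to calcium, at 67.4 CPM per kb. Gria3 was at 25.6 CPM per kb and Gria4, better known from interneurons and thalamus, at 9.78 CPM per kb. Among the other auxiliary genes, Cnih3 was at 25.5, Cacng3 at 17.0, Cacng2 (stargazin) at 7.47 and Cacng4 at 2.72 CPM per kb. The 6 genes ranked first to sixth per kb thus hold 2 AMPA subunits, 2 AMPA auxiliary genes and 1 kainate and 1 NMDA subunit.

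Of the NMDA genes, Grin1, the obligatory subunit, was at 42.0 CPM per kb. Grin2c, which is found in astrocytes as well as neurons, was at 14.1, Grin2b at 8.48, Grin2a at 3.70, Grin2d at 2.27 and Grin3a at 1.66 CPM per kb. The annotated exons of Grin2a and Grin2b are long and cover 17933 and 24842 bp, of which the longest coding transcripts take 14634 and 24060 bp. With that transcript as the length Grin2c was at 14.6, Grin2b at 8.76 and Grin2a at 4.53 CPM per kb, in the same order. Grin2d and Grin3a overlap Kdelr1 and Ppp3r2 in the annotation and may share reads with them. Grik5, a high-affinity kainate subunit that needs a partner subunit to conduct, was the highest kainate gene at 53.5 CPM per kb. Grik4, its close relative enriched in CA3, was at 8.12, Grik3 at 7.35, Grik2 at 5.11 and Grik1, found mainly in interneurons, at 1.92 CPM per kb. Neto1 and Neto2, auxiliary proteins that slow kainate receptor gating, were at 13.2 and 10.7 CPM per kb, and Grid1, an orphan receptor that binds cerebellins across the synapse, at 10.98.

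Grm5, the postsynaptic receptor of pyramidal cells, led the metabotropic class at 33.6 CPM per kb. Grm2, which dentate granule cells carry on their mossy fibers, was at 15.9, Grm3, which neurons share with astrocytes, at 14.8 and Grm7 at 10.01 CPM per kb. Grm4 and Grm8 were the lowest of the 30 genes, at 1.64 and 0.652 CPM per kb. With the longest coding transcript as the length instead of all exons, the 4 highest genes kept their order while Grin1 (95.3 CPM per kb) moved above Grik5 (73.5) and Gria3 (48.5) above Grm5 (42.8). Grik1 then stood at 3.53 CPM per kb and Grm8, still the lowest, at 1.67. The spread over all 36 libraries was smallest for Grin1 (coefficient of variation 5.98%), Gria2 (6.16%) and Grik5 (6.22%) and widest for Grm4 (35.2%) and Grm8 (27.8%). Neighbours in the order whose ranges over the 36 libraries overlapped, such as Gria3 (21.6 to 29.4 CPM per kb) and Cnih3 (21.1 to 31.4), are not ordered by these data.

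**Figure D1:**
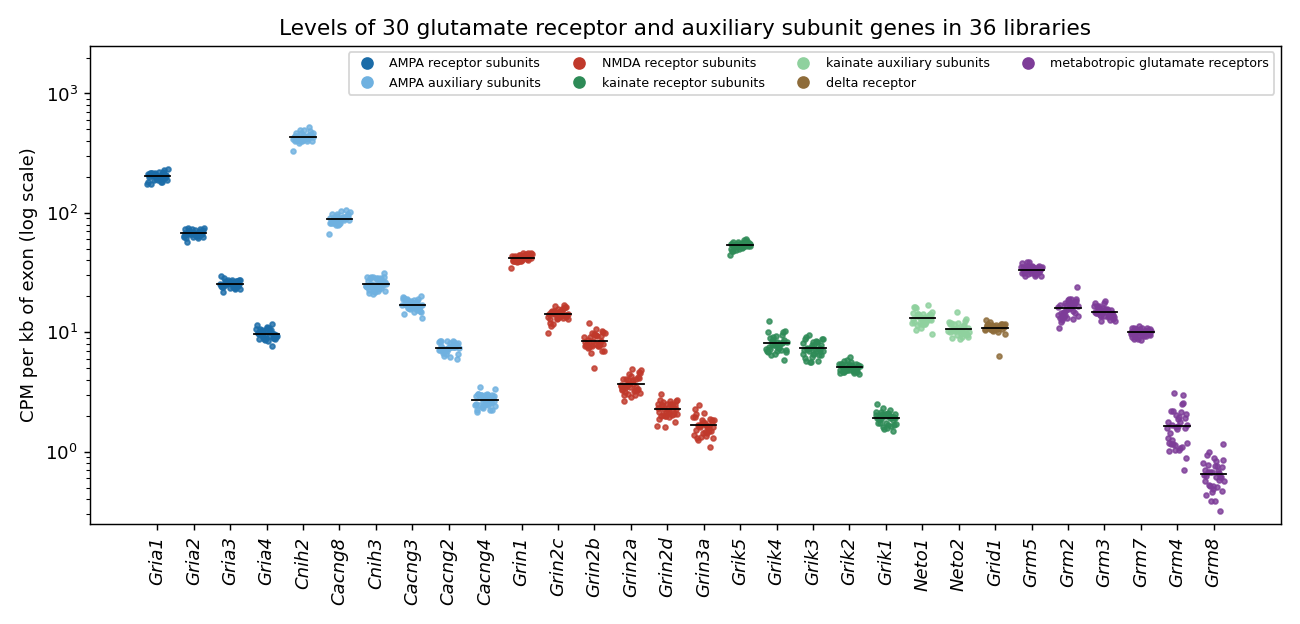
TMM-scaled CPM per kb of exon (log scale) of the 30 genes in each of the 36 libraries (points), grouped by receptor class, with the mean as a bar. Levels run from 431 CPM per kb for Cnih2 to 0.652 for Grm8, and Grm4 and Grm8 show the widest scatter.

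The time comparisons ask which receptor genes move after training. Within each genotype, only Grm2 passed an adjusted p of 0.05 (edgeR quasi-likelihood test, Benjamini-Hochberg over all genes), and only in mutants at 1 h. In WT at 1 h, 0 of 30 genes passed (background of all genes tested 0.0%) and 0 of 30 had an unadjusted p under 0.05 (background 5.36%). The same test called 0 of 11 activity-induced genes, although all 11 had higher values and 10 an unadjusted p under 0.05. A count of 0 passing in WT at 1 h thus does not show that genes did not move. In WT at 3 h, 0 of 30 passed (background 0.0%), with 2 at an unadjusted p under 0.05 (background 8.23%). In mutants at 1 h, 1 of 30 passed (background 0.312%) and no other gene had an unadjusted p under 0.05 (background 11.1%). In mutants at 3 h, 0 of 30 passed (background 0.0%), with 6 at an unadjusted p under 0.05 (background 8.57%). DESeq2 with sex as a covariate called 0 of 30 in WT at 1 h (background 0.0222%, over genes to which DESeq2 gave an adjusted p), WT at 3 h (0.526%) and mutants at 3 h (0.824%), and 1 of 30, Grm2, in mutants at 1 h (2.0%). The 2 time comparisons of a genotype share their 0 h mice.

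In a joint fit of all 36 libraries over both genotypes, 2 of 30 genes passed at 3 h (background 2.39%), Grm2 upwards and Grm3 downwards, and 7 of 30 had an unadjusted p under 0.05 (background 15.8%). At 1 h 0 of 30 passed (background 1.14%), with 2 at an unadjusted p under 0.05 (background 12.5%), and DESeq2 called 1, Grm2, with sex (background 2.68%) and without a covariate (2.52%). The median log2 fold change of the 30 genes was −0.02 at 1 h and −0.01 at 3 h, against −0.01 at both times for all 18186 genes tested. The joint log2 fold change of 29 of 30 genes stayed within 0.25 of 0 at each time, and the standard errors (SE) of the 30 genes ran from 0.03 to 0.21. The direction of the 30 genes had no clear balance within a genotype either. In WT 11 were higher and 19 lower at 1 h, and 16 were higher and 14 lower at 3 h, while in mutants 14 were higher and 16 lower at 1 h, and 13 were higher and 17 lower at 3 h. Without the 2 libraries of discordant sex, 16 were higher and 14 lower in WT at 1 h and 21 were higher and 9 lower in mutants at 3 h, so these balances rest on 1 library each. In data simulated on 17336 genes for mutant against WT at 0 h, of 50 genes changed by a log2 fold of 0.25, 4 were called, and of 50 changed by 0.5, 28 were called. The other comparisons were not simulated.

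**Figure D2:**
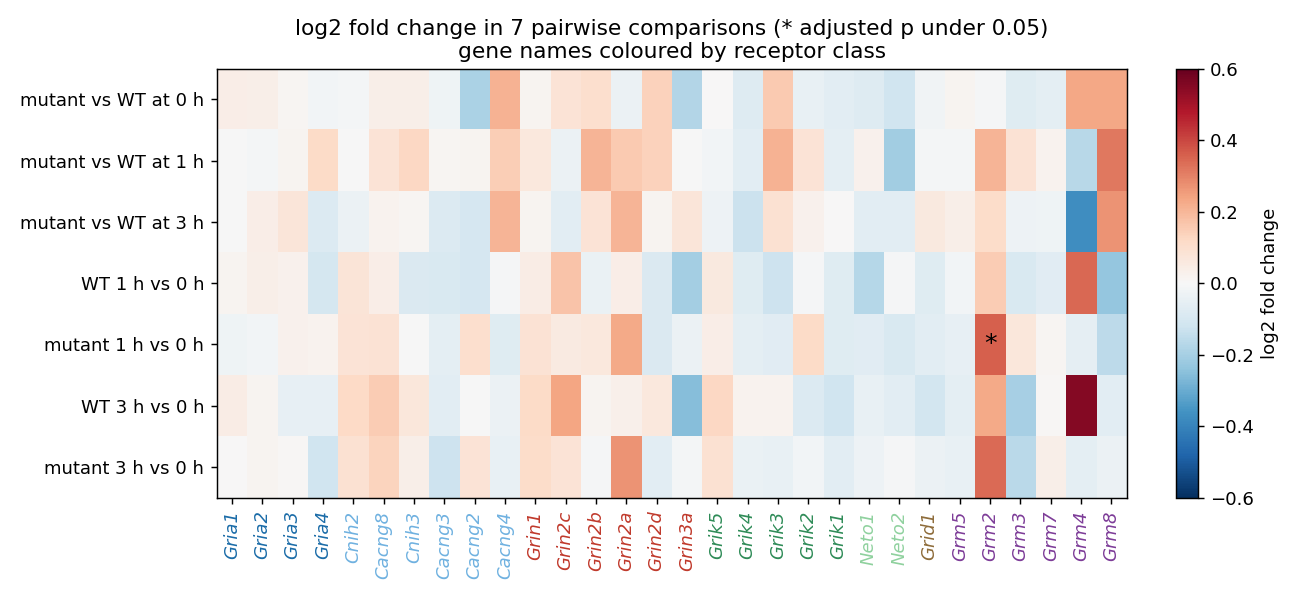
log2 fold change (color) of the 30 genes in the 7 pairwise comparisons, each fitted on its 12 libraries, with gene names colored by class and an asterisk at an adjusted p under 0.05. The only asterisk is on Grm2 in mutants at 1 h, and Grm4 in WT at 3 h has the largest value, 0.55, without passing.

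Grm2 (mm10 chr9:106643095-106656082, minus strand), the presynaptic group II metabotropic receptor, rose in mutants at 1 h and in the joint fit at 3 h. In naive mice its level was lowest 53.3, median 66.5 and highest 83.5 CPM in WT, and 61.6, 68.4 and 72.6 CPM in mutants. At 1 h the lowest, median and highest were 64.5, 76.1 and 86.7 CPM in WT, and 77.9, 89.7 and 93.0 CPM in mutants. All 6 mutants at 1 h thus lay above all 6 naive mutants, while the WT groups overlapped. Groups that do not overlap were seen for Grm2 alone among the 30 genes in that comparison (background 1.36%). No gene of the 30 had groups that do not overlap in the other 6 pairwise comparisons, where the background was 0.254%, 0.603% and 0.328% between genotypes at 0, 1 and 3 h, 0.283% and 0.442% in WT at 1 and 3 h, and 0.498% in mutants at 3 h.

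The log2 fold change of Grm2 in mutants at 1 h was 0.36 (SE 0.05, adjusted p 0.0118, edgeR), a rise of 1.28-fold, with 6 of 6 mutants above the naive mean. The adjusted p stayed between 0.00839 and 0.043 when each of the 12 libraries was left out in turn, and was 0.154 when all 36 libraries were fitted together. In WT at 1 h the log2 fold change was 0.15 (SE 0.11, adjusted p 0.934), or 0.08 without WT 0 h male 3. The difference between the genotypes in this response was 0.21 (SE 0.15, unadjusted p 0.184, adjusted p 1.00). The WT and the mutant response of Grm2 were thus not shown to differ.

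At 3 h the lowest, median and highest Grm2 levels were 63.8, 84.1 and 87.3 CPM in WT, and mutants had 67.2, 85.2 and 117 CPM, with 10 of the 12 trained mice above the naive mean of their genotype. The joint log2 fold change was 0.29 (SE 0.08, adjusted p 0.0389), against 0.23 for WT alone (SE 0.11, adjusted p 0.654) and 0.34 for mutants alone (SE 0.11, adjusted p 0.440). The joint value at 1 h was 0.26 (SE 0.08, adjusted p 0.0900), with 11 of 12 trained mice above the naive mean, and 0.23 (adjusted p 0.0924) without the 2 libraries of discordant sex. The joint 3 h call rested on a narrow margin. It was lost without a filter on low counts (adjusted p 0.0523), with only the 24 libraries of the 2 time points (0.0968), and for 17 of the 36 libraries when that library was omitted (0.0548 to 0.0842). Those 17 were WT 0 h males 1 and 3 and females 1 and 3, mutant 0 h males 1, 2 and 3 and females 1 and 3, WT 3 h males 1 and 2 and females 2 and 3, and mutant 3 h males 2 and 3 and females 1 and 3. Without the 2 libraries of discordant sex the value was 0.32 with an adjusted p of 0.0129.

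Grm2 followed the markers of dentate granule cells from animal to animal. The sum of 6 such markers (Prox1, Dsp, Tdo2, Lct, Stxbp6 and Calb1) had a median of 507 CPM in naive WT, 540 at 1 h and 551 at 3 h, and of 510, 555 and 593 CPM in mutants, with overlapping ranges at all times. In mutants at 1 h 4 of these 6 markers had higher values than at 0 h, 2 with an unadjusted p under 0.05 and 0 with an adjusted p under 0.05. In the joint fit at 3 h 5 of the 6 had higher values, 1 with an unadjusted p under 0.05 and 0 with an adjusted p under 0.05. Across the deviations of the 36 libraries from their group means, log2 levels of Grm2 and of the marker sum had a Pearson r of 0.62 and a Spearman rho of 0.48 (permutation within groups, p 0.001 and 0.00877, adjusted p 0.00433 and 0.038 over 13 relations between a gene and a marker list). Without the 2 libraries farthest out on the marker sum r was 0.58. The 13 relations were chosen after seeing the data, a choice that their adjusted p does not cover. Of 4 markers of hippocampal excitatory neurons, 3 had higher and 1 lower values in mutants at 1 h (median log2 fold change 0.18), and 2 had an unadjusted p under 0.05. In the joint fit at 3 h 3 were higher and 1 lower (median 0.01), and 1 had an unadjusted p under 0.05. The 1 that passed in each was Neurod2, at 0.27 in mutants at 1 h (SE 0.04, adjusted p 0.0146) and 0.18 in the joint fit at 3 h (SE 0.04, adjusted p 0.0173). CA1 markers had higher values for 4 of 4 in mutants at 1 h (median 0.14, 1 with an unadjusted p under 0.05), and 2 of 3 CA2 markers had higher values, 2 of the 3 with an unadjusted p under 0.05 (median 0.17), and none of either list had an adjusted p under 0.05. The CA2 sum ran from 146 to 164.1 CPM in naive mutants and from 164.7 to 208 CPM in mutants at 1 h. These groups fell apart by a narrow margin, and 1.36% of single genes had groups that do not overlap in this comparison. Of the 3 CA2 markers Rgs14 had a median of 129 CPM over all libraries, Amigo2 23.7 and Map3k15 3.77 CPM. Striatum markers went the other way in mutants at 1 h, where all 5 had lower values than in naive mutants (median −0.34, 3 with an unadjusted p under 0.05 and 0 with an adjusted p under 0.05). In naive mutants 4 of these 5 had higher values than in naive WT (median 0.41, 3 with an unadjusted p under 0.05 and 0 with an adjusted p under 0.05). Their summed level ran from 73.2 to 117 CPM in naive mutants and from 71.1 to 89.4 CPM in mutants at 1 h. Choroid plexus (5 of 5, median −0.72) and oligodendrocyte markers (5 of 5, median −0.04) also had lower values in mutants at 1 h. Neocortex markers were higher (4 of 4, median 0.09). In these 3 lists 0 had an unadjusted p under 0.05. Of 7 interneuron markers 3 were higher and 4 lower, 2 with an unadjusted p under 0.05 and 0 with an adjusted p under 0.05. The part of any of these cells or tissues in the Grm2 response was not tested.

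Grm3 (mm10 chr5:9485541-9725170, minus strand), the other group II receptor, fell at 3 h in the joint fit. Its lowest, median and highest levels were 44.2, 48.0 and 54.0 CPM in naive WT and 38.7, 41.7 and 47.4 CPM in WT at 3 h. In mutants they were 42.1, 46.5 and 50.6 CPM at 0 h and 37.9, 41.3 and 44.4 CPM at 3 h. All 12 mice at 3 h lay below the naive mean of their genotype, 5 of 6 WT and 4 of 6 mutants below every naive mouse of their own genotype. The joint log2 fold change was −0.18 (SE 0.05, adjusted p 0.0338), or 0.881-fold. Taken alone, WT gave −0.20 (SE 0.06, adjusted p 0.485), and the value of the mutants was −0.16 (SE 0.05, adjusted p 0.433).

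At 1 h the joint log2 fold change of Grm3 was −0.01 (SE 0.05, adjusted p 0.974), and from −0.04 to 0.01 with single libraries omitted. The 3 h call was kept in DESeq2 with sex (adjusted p 0.0108) and without the 2 libraries of discordant sex (0.0210), and was lost for 11 of the 36 libraries when that library was omitted (adjusted p 0.0504 to 0.0774). Those 11 were WT 0 h males 1 and 3 and female 3, mutant 0 h males 1 and 3 and female 1, WT 3 h males 1 and 2 and female 1, and mutant 3 h male 3 and female 3. Grm3 and the sum of 5 astrocyte markers had an r of 0.21 and a rho of 0.24 within groups (permutation p 0.318 and 0.206, adjusted 0.459 and 0.372 over the 13 relations, r 0.26 without the 2 farthest libraries). At 3 h 4 of the 5 astrocyte markers had lower values, 2 with an unadjusted p under 0.05 and 0 with an adjusted p under 0.05, and 4 of 5 microglia markers had lower values, 3 with an unadjusted p under 0.05 and 0 with an adjusted p under 0.05. All 5 oligodendrocyte markers had lower values (median −0.05), 0 of them with an unadjusted p under 0.05. Of 4 neocortex markers 2 were higher and 2 lower, and 1, Rorb, was called, at −0.31 (SE 0.06, adjusted p 0.00768). The part of these cells or tissues in the fall of Grm3 was not tested.

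**Figure D3:**
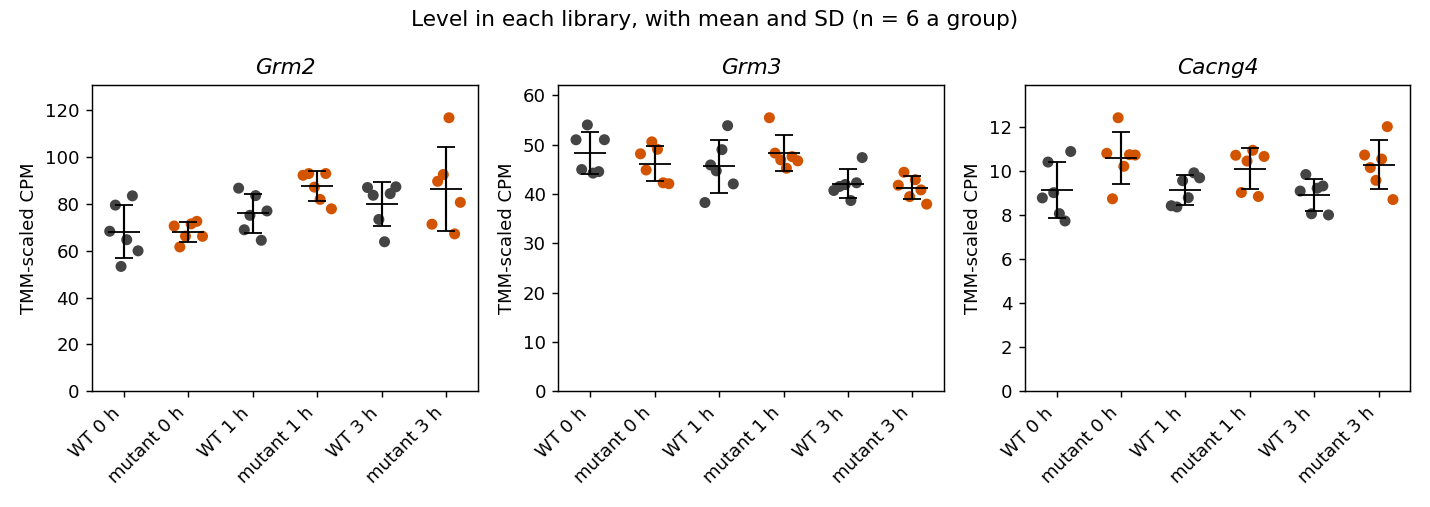
TMM-scaled CPM of Grm2, Grm3 and Cacng4 in each library (points), with the mean and SD of the 6 mice of a group, WT in grey and mutants in orange. Grm2 in mutants at 1 h (77.9 to 93.0 CPM) lies wholly above naive mutants (61.6 to 72.6 CPM), Grm3 is low at 3 h in both genotypes, and Cacng4 overlaps between genotypes at each time.

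KDM5B acts on H3K4me3, a mark of CpG-rich promoters. Both genes that passed in the joint fit did so for time after training and not for genotype. Over all times mutants differed from WT by 0.10 for Grm2 (edgeR, adjusted p 0.453) and −0.005 for Grm3 (adjusted p 0.971). As a description, the 250 bases before the start site of these 2 genes are shown, from RefSeq on GRCm38.p6. Both are on the minus strand and written in the direction of transcription, with CpG pairs in capitals.
Grm2, chr9:106656110-106656359: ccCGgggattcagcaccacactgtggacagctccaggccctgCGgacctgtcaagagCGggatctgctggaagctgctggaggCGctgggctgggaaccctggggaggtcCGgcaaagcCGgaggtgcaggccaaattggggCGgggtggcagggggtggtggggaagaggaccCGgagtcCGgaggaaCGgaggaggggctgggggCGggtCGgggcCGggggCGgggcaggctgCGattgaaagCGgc
Grm3, chr5:9725353-9725602: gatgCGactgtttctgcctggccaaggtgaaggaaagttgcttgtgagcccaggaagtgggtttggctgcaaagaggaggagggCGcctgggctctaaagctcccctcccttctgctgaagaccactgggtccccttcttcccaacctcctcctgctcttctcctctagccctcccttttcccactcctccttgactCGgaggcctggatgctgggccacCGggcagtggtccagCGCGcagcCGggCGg

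The Grm2 window holds 16 CpG pairs and the Grm3 window 8, against a median of 6 over 32851 promoters of the same length. Of all these promoters, 74.6% have fewer CpG pairs than Grm2. Neither window matched, on either strand, the CRE (TGACGTCA, in 1.55% of all promoters), its core (TGACG, which the CRE contains, in 17.8%), the AP-1 site (TGANTCA, 6.75%) or the EGR site (GCGNGGGCG, 4.70%). RefSeq promoters were matched for 19 of the 30 genes. Among these, the core TGACG was found for Grin1 and Grm8, the AP-1 letters for Grm8 and the EGR letters for Gria4. No chromatin was measured in these libraries.

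None of the 4 AMPA subunits passed in any comparison, and their joint log2 fold changes ran from −0.04 to 0.03 at 1 h and from −0.08 to 0.02 at 3 h. Gria1 stood at 1201 ± 104 CPM in naive WT, 1218 ± 64.3 an hour after training and 1244 ± 123 at the late time (mean ± SD, n = 6). Mutants had 1239 ± 89.9, 1218 ± 68.9 and 1241 ± 96.1 CPM of it at the same times (n = 6). The only AMPA subunit with an unadjusted p under 0.05 in any comparison was Gria4 in mutants at 3 h, at −0.12 (SE 0.04, adjusted p 0.477). Gria2 took 19.8% to 23.4% of the summed AMPA subunit level per kb of exon in the 36 libraries. This share depends on the length taken. With the longest coding transcript Gria2 would stand at 101 instead of 67.4 CPM per kb, Gria1 at 221 instead of 203 and Gria3 at 48.5 instead of 25.6. Gria4 would stand at 11.3 instead of 9.78 CPM per kb. Among NMDA genes, Grin1 had joint log2 fold changes of 0.07 at 1 h (SE 0.03, adjusted p 0.385), or 0.04 without WT 0 h male 1, and 0.11 at 3 h (SE 0.03, adjusted p 0.0601). Without the 2 libraries of discordant sex the 3 h value passed, at 0.12 (adjusted p 0.0398). All 12 mice at 3 h were above the naive mean of their genotype for Grin1, and the 4 groups at 0 and 3 h overlapped.

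Other genes just outside the threshold at 3 h were Cacng8, with a joint log2 fold change of 0.14 (SE 0.05, adjusted p 0.0988), and Grik5 with 0.11 (SE 0.04, adjusted p 0.102). For each of these, too, 12 of 12 mice were above the naive mean. Cacng8 was at 0.15 and Grik5 at 0.11 without the 2 libraries of discordant sex (adjusted p 0.0700 and 0.0817). Grin2c followed at 0.16 (SE 0.06, adjusted p 0.159) and Cnih2 at 0.11 (SE 0.05, adjusted p 0.281). In this comparison DESeq2 with sex called 3 of the 30 genes, Grm2, Grm3 and Grin1 (background 5.43%), and DESeq2 without a covariate also called Grik5, 4 in all (background 5.47%). In WT at 3 h the smallest unadjusted p after Grm3 belonged to Grin2c, at 0.23 (SE 0.09, adjusted p 0.534), and in mutants to Cacng8, at 0.13 (SE 0.05, adjusted p 0.439). In WT at 1 h the 2 smallest were Grin2c at 0.17 (SE 0.09, adjusted p 0.926), or 0.10 without WT 0 h male 1, and Neto1 at −0.17 (SE 0.09, adjusted p 0.926). In mutants at 1 h, Grin1 came second to Grm2, at 0.09 (SE 0.04, adjusted p 0.458).

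**Figure D4:**
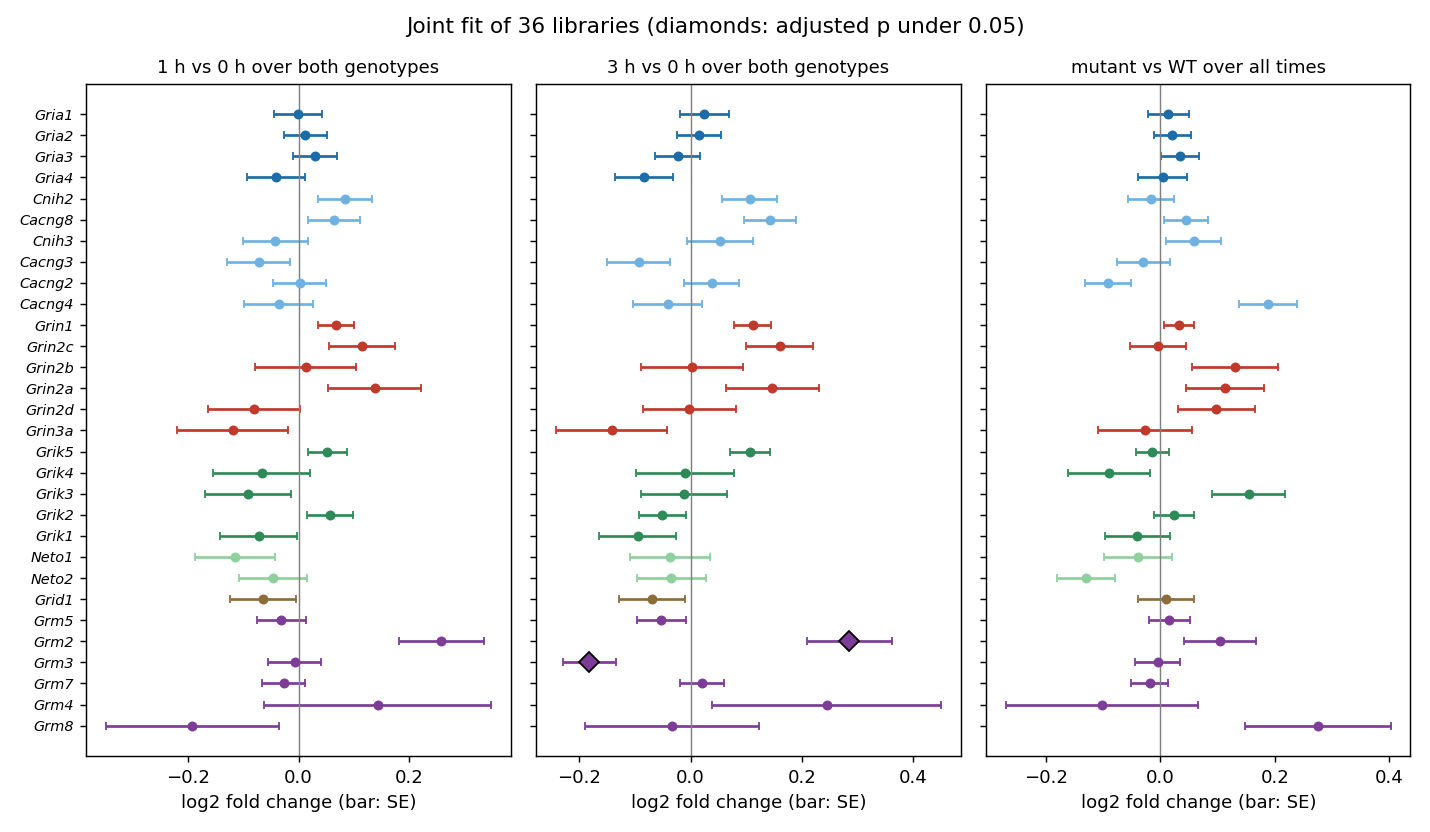
log2 fold change (points) with its SE (bars) of the 30 genes in the joint fit of 36 libraries, for 1 h and 3 h against 0 h over both genotypes and for mutant against WT over all times, colored by receptor class. The diamonds, Grm2 at 0.29 and Grm3 at −0.18 at 3 h, are the only values with an adjusted p under 0.05.

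The genotype comparisons ask which receptor genes differ in mutants. None of the 30 passed at any time. At 0 h 0 of 30 passed (background 0.0%), with 1 at an unadjusted p under 0.05 (background 6.15%). At 1 h 0 of 30 passed (background 0.0%), with 3 at an unadjusted p under 0.05 (background 8.61%), and at 3 h 0 of 30 passed (background 0.0115%), with 1 at an unadjusted p under 0.05 (background 6.36%). Over all times 0 of 30 passed (background 1.18%), with 5 at an unadjusted p under 0.05 (background 15.1%). DESeq2 with sex called 0 at each single time (background 0.0787%, 0.494% and 0.246% at 0, 1 and 3 h) and 1, Cacng4, over all times (background 2.78%), as did DESeq2 without a covariate (2.46%). The medians of the 30 log2 fold changes were −0.00, 0.02 and 0.01 at 0, 1 and 3 h and 0.01 over all times, where the median of all genes was 0.00. All 4 AMPA subunits lay between 0.00 and 0.03 over all times.

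Cacng4 (mm10 chr11:107732357-107794557, minus strand), a TARP also expressed in oligodendrocyte precursors, came closest. Its lowest, median and highest WT levels were 7.74, 8.91 and 10.9 CPM at 0 h, 8.38, 9.18 and 9.93 CPM at 1 h and 8.01, 9.16 and 9.85 CPM at 3 h. In mutants they were 8.75, 10.7 and 12.4 CPM at 0 h, 8.85, 10.6 and 10.95 CPM at 1 h and 8.71, 10.4 and 12.03 CPM at 3 h. The groups overlapped at each time, and 14 of 18 mutants were above the WT mean of their time. The log2 fold change was 0.21 (SE 0.10, adjusted p 0.832), 0.15 (SE 0.08, adjusted p 0.619) and 0.20 (SE 0.09, adjusted p 0.766) at 0, 1 and 3 h and 0.19 (SE 0.05, adjusted p 0.0586) over all times.

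The Cacng4 value over all times passed in DESeq2 with sex (adjusted p 0.0216) and when any of 6 libraries was omitted (adjusted p 0.0326 to 0.0480), namely WT 0 h male 2 and female 3, mutant 0 h male 2, mutant 1 h male 2 and female 2, and mutant 3 h female 3. Without the 2 libraries of discordant sex it was 0.16 with an adjusted p of 0.0814. Cacng4 and the sum of 3 oligodendrocyte precursor markers (Pdgfra, Cspg4 and Olig1) had an r of 0.44 and a rho of 0.40 within groups (permutation p 0.0172 and 0.0285, adjusted 0.0561 and 0.0928 over the 13 relations, r 0.37 without the 2 farthest libraries). All 3 of these markers had higher values in mutants, 0 of them with an unadjusted p under 0.05. Over all times 3 of 3 thalamus markers (median 0.24, 2 with an unadjusted p under 0.05) and 4 of 5 striatum markers (median 0.20, 2 with an unadjusted p under 0.05) also had higher values in mutants. So had 5 of 5 astrocyte markers (median 0.03, 2 with an unadjusted p under 0.05), 5 of 5 oligodendrocyte markers (median 0.13, 0 with an unadjusted p under 0.05) and 4 of 7 interneuron markers (median 0.04, 3 of the 7 with an unadjusted p under 0.05). Of the markers of hippocampal excitatory neurons 3 of 4 had lower values (median −0.05, 2 of the 4 with an unadjusted p under 0.05). Lower values were also seen for 3 of 4 CA1 (median −0.10), 3 of 4 neocortex (median −0.06) and 5 of 5 choroid plexus markers (median −1.85). CA2 and CA3 each had 2 of 3 higher (median 0.04 and 0.02). An unadjusted p under 0.05 was held by all 5 choroid plexus markers and by 1 each of CA1, CA2, CA3 and neocortex. In these lists 0 markers had an adjusted p under 0.05. Of 6 dentate markers 3 were higher and 3 lower, and 1, Tdo2, was called, at 0.41 (SE 0.10, adjusted p 0.0306). Cacng4 and the striatum sum had an r of −0.08 and a rho of −0.03 within groups (permutation p 0.674 and 0.870, adjusted 0.877 and 0.942, r −0.03 without the 2 farthest libraries). The part of these cells or tissues in the Cacng4 value was not tested.

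Neto2 had log2 fold changes of −0.12 (SE 0.06, adjusted p 0.812), −0.21 (SE 0.09, adjusted p 0.577) and −0.06 (SE 0.09, adjusted p 0.928) in mutants at 0, 1 and 3 h. The 1 h value was −0.11 without WT 1 h male 3, and the 3 h value ran from −0.14 to −0.02 with single libraries omitted. The value over all times was −0.13 (SE 0.05, adjusted p 0.199), with 15 of 18 mutants below the WT mean of their time. Its medians at the 3 times ran 72.5, 65.5 and 65.8 CPM for WT mice, while mutants gave 64.5, 61.0 and 60.9 CPM. The groups overlapped at each time. Grik3 lay above the WT mean of its time in 15 of 18 mutants, at 0.15 over all times (SE 0.06, adjusted p 0.225). Grm8, the lowest of the 30 genes, had the largest value, 0.28 (SE 0.13, adjusted p 0.299). Over all times all 5 choroid plexus markers had lower values in mutants with an unadjusted p under 0.05, and 0 with an adjusted p under 0.05, at a median log2 fold change of −1.85. Neto2 and the choroid plexus sum had an r of −0.04 and a rho of −0.04 within groups (permutation p 0.825 and 0.811, adjusted 0.975 and 0.942 over the 13 relations, r −0.04 without the 2 farthest libraries).

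In single time points the 2 smallest unadjusted p values belonged to Cacng2 and Neto2 at 0 h, Grm2 and Grik3 at 1 h, and Cacng4 and Grin2a at 3 h. Cacng2 had 39.4, 44.1 and 46.8 CPM in naive WT (lowest, median and highest) and 34.7, 38.5 and 40.8 CPM in naive mutants, with 6 of 6 mutants below the WT mean. Its log2 fold change was −0.19 (SE 0.06, adjusted p 0.714). At 1 h Grm2 was at 0.20 (SE 0.07, adjusted p 0.406) and Grik3 at 0.21 (SE 0.09, adjusted p 0.527). At 3 h Grin2a was at 0.20 (SE 0.12, adjusted p 0.836). Without the 2 libraries of discordant sex these were 0.24 for Grm2, 0.27 for Grik3 and 0.28 for Grin2a, and Cacng4 at 3 h was 0.15 (adjusted p 0.214, 0.276, 0.533 and 0.675). None of these differences passed the adjusted threshold.

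No difference between genotypes in the response to training passed the test for any of the 30 genes. At 1 h 0 of 30 passed (background 0.0%), with 1 at an unadjusted p under 0.05 (background 3.73%), and at 3 h 0 of 30 passed (background 0.0%), with 0 at an unadjusted p under 0.05 (background 1.76%). DESeq2 with sex called 0 of 30 at both times (background 0.0%). The gene with the unadjusted p under 0.05 was Cacng2 at 1 h, at 0.20 (SE 0.10, adjusted p 1.00), followed by Grm3 at 0.15 (SE 0.09, adjusted p 1.00), or 0.11 without the 2 libraries of discordant sex. At 3 h the 2 smallest were Grm4 at −0.60 (SE 0.41, adjusted p 1.00) and Grin2a at 0.23 (SE 0.17, adjusted p 1.00). SEs of the 30 genes in these comparisons ran from 0.07 to 0.41. Grm4 in WT spread from 4.25 to 17.9 CPM at 3 h and from 6.06 to 10.5 CPM at 0 h.

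Ratios between genes of a family were described without a test. The ratio of Grin2a to Grin2b per kb, often used for the maturity of NMDA receptors, averaged 0.430 ± 0.0506, 0.465 ± 0.0745 and 0.433 ± 0.0421 for WT mice over the 3 times (mean ± SD, n = 6). For mutants the values were 0.395 ± 0.0512, 0.440 ± 0.0366 and 0.472 ± 0.0282 (n = 6), and groups of the same time overlapped. Cacng8 made up 71.5% to 81.2% of the 4 TARP genes per kb. The ratio of Grm2 to Grm3 in CPM averaged 1.44 ± 0.341 in naive WT, 1.70 ± 0.355 an hour after training and 1.90 ± 0.183 at the late time (mean ± SD, n = 6). Mutants had 1.48 ± 0.145, 1.81 ± 0.125 and 2.10 ± 0.404 (n = 6). This restates the values of both genes.

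Some of the 30 genes varied together from animal to animal within groups. Of 435 pairs of genes, 33 had a positive and 13 a negative correlation of their log2 CPM deviations at an adjusted p under 0.05 for both Pearson r and Spearman rho (permutation within groups, adjusted over 435 pairs, n = 36 libraries). The smallest r among these pairs was 0.463 in size. As a description, 10.1% of the 435 pairs had an r of at least that size upwards and 3.68% downwards, against 1.81% and 1.35% of the pairs of all 18186 genes tested and 2.75% and 1.98% of the pairs of the 11185 genes with a mean CPM in the range of the 30. The closest pairs were Cacng8 with Cnih2 (r 0.84, rho 0.71, r 0.76 without the 2 libraries farthest out on Cacng8), 2 auxiliary proteins of the same receptor, and Gria2 with Gria3 (r 0.84, rho 0.76, r 0.76 without 2), subunits that assemble with each other. Next came Grin1 with Cacng8 (r 0.79, rho 0.70, r 0.71 without 2), which belong to different receptors, and Gria4 with Grm4 (r 0.76, rho 0.84, r 0.73 without 2), an ionotropic and a metabotropic receptor. Grin2a with Grin2b followed (r 0.74, rho 0.72, r 0.71 without 2). Grin1, their obligatory partner, had an r of 0.11 with Grin2a and of 0.10 with Grin2b (adjusted p 0.718 and 0.741).

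Grik3 ran against Cacng8 (r −0.70, rho −0.75, r −0.75 without 2) and Cnih2 (r −0.70, rho −0.72, r −0.70 without 2). Grm2 and Grm3 did not pass (r −0.13, rho −0.10, adjusted p 0.694 and 0.792, r −0.11 without 2). The pairs share libraries and scaling, and sex was not removed from the deviations. What sets these correlations was not tested. Of the other relations with marker sums, Grin2d followed interneuron markers (r 0.62, rho 0.67, adjusted p 0.00433 and 0.00143, r 0.58 without 2) and Grik4 followed CA3 markers (r 0.57, rho 0.58, adjusted p 0.00433 and 0.00331, r 0.51 without 2). The other 10 relations between a gene and a marker list did not pass.

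**Figure D5:**
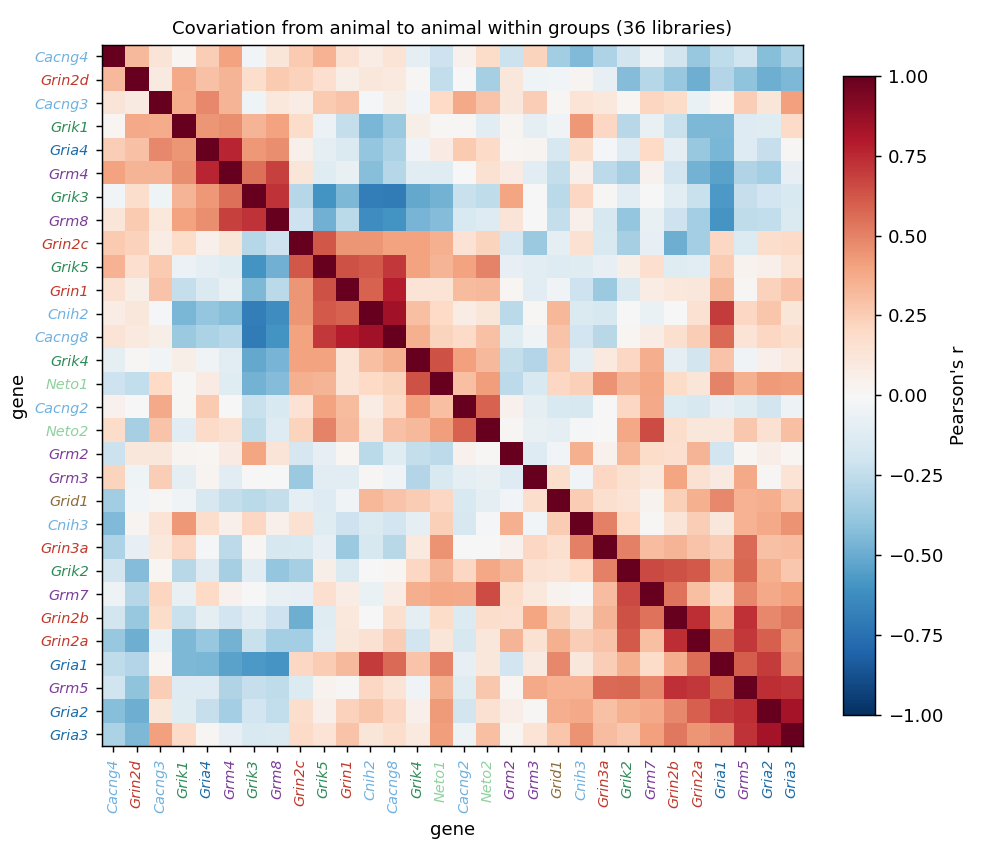
Pearson r between log2 CPM deviations from the group mean for each pair of the 30 genes over 36 libraries, ordered by average linkage, with gene names colored by class. Cacng8 and Cnih2 (r 0.84) stand in a block with Grin1 and Grik5, each with a negative r to Grik3 and Grm8, and every pair among Gria2, Gria3, Grm5, Grin2a and Grin2b has a positive r.

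Genes that work with these receptors were counted from lists in the same fits. Of 11 activity-induced genes, all 11 had higher values at 1 h in the joint fit and 8 passed (background 1.14%), among them Fosb at 1.37 (SE 0.13, adjusted p 1.83e-07) and Egr3 at 0.42 (SE 0.07, adjusted p 0.00152). In the pairwise tests at 1 h all 11 were higher in each genotype, at a median of 0.81 in WT and 0.87 in mutants. An unadjusted p under 0.05 was reached by 10 in WT and 11 in mutants (background 5.36% and 11.1%). Of the 11, 0 passed in WT and 4 in mutants (background 0.0% and 0.312%). Of 22 postsynaptic scaffold and receptor trafficking genes, 2 passed upwards at 1 h in the joint fit (background 1.14%). They were Homer1 at 0.26 (SE 0.05, adjusted p 0.00921) and Homer2 at 0.20 (SE 0.05, adjusted p 0.0405), whose proteins bind Grm5. These gene counts do not tell transcript forms apart. At 3 h 1 passed upwards (background 2.39%), Shank2 at 0.12 (SE 0.03, adjusted p 0.0261). Of 17 further receptor and auxiliary genes, 16 passed the filter, and 1 was called at 3 h (background 2.39%), Shisa7 at 0.20 (SE 0.05, adjusted p 0.0337), an AMPA and GABA receptor partner. Another, Cacng5, a further TARP, was the 1 of these 16 called in mutants over all times (background 1.18%), at 0.56 (SE 0.14, adjusted p 0.0472). A count of 1 of 22 or 1 of 16 is near these backgrounds and is no result about the lists. None of the 8 glutamate transport and metabolism genes and none of the 7 extracellular AMPA organizers passed in the 3 main joint comparisons. Nptx2, one of the organizers, came closest, at 0.25 at 3 h (SE 0.07, adjusted p 0.0608).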

How the data were processed

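RNA of dorsal hippocampus was sequenced in 36 libraries. The authors aligned reads to mm10 with RNA STAR 2.7.8a and counted them with featureCounts 2.0.1. What the authors deposited are raw counts for each gene, with no normalization. Annotation, strand setting and treatment of multi-mapping reads are not given in the sources used here. Genes were named from RefSeq through their Entrez identifiers. Of 27179 genes 1904 had no name and held 1.28% of the counts.

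Counts were tested with edgeR 4.0.16 in R 4.3.3 with limma 3.58.1 (quasi-likelihood F-test, dispersion estimated robustly), with TMM scaling, filterByExpr with a minimum count of 10 and sex as labelled as a covariate. The 7 pairwise comparisons were fitted on their 12 libraries. Comparisons over both genotypes or all times, and differences in response, were fitted on all 36. An adjusted p (Benjamini-Hochberg over all genes tested) under 0.05 was called. The members and lists were chosen with earlier results of these data known. In each comparison, genes past the threshold and the 2 with the smallest unadjusted p are given in full. Exon lengths are from GENCODE M21 (GRCm38). Correlations used 100000 permutations within groups and a pseudocount of 0.01 among members. Alternatives were DESeq2 1.42.0, RLE factors, no filter, no sex covariate, a replicate block, other sets of libraries and each library left out in turn. The correlations and their marker pairs were chosen after seeing the data.

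Over 90 comparisons of 2 libraries of a group, 0 were identical and 0 agreed within sampling noise. Replicate numbers were checked as pairs over genes with a mean above 1 CPM. Same-numbered libraries, which share a sex, correlated over 0.1 in all 6 pairs for mutants at 0 and 1 h (0.104 to 0.275), in 2 of 6 once sex was removed, and in no more than 5 of 6 elsewhere. The edgeR test was tested on simulated data. Tables were made in Python 3.11.15 with pandas 2.3.3, and figures with Matplotlib 3.10.9. Another 8 samples of the series were not analysed here.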

Additional observations from a re-analysis of the deposited data

Results flagged for a closer look

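In 8 of 180 sets of 6 libraries (30 genes in 6 groups) 1 library stood apart past Dixon's 95% critical value for the gap to the nearest other library, and chance gives about 1 in 20. Gria1 was at 1062 CPM in mutant 0 h male 1, with the others at 1244 to 1305 CPM. Gria3 was at 289.8 CPM in WT 0 h male 3 (others 234 to 250.4). Grin3a was at 30.1 CPM in mutant 0 h female 1 (others 15.4 to 20.8). Grid1 was at 38.2 CPM in WT 3 h male 2 (others 66.0 to 70.3). Grm3 was at 55.4 CPM in mutant 1 h male 1 (others 45.2 to 48.3). Cacng8 was at 248 CPM in WT 3 h female 2 (others 204 to 218). Cnih2 was at 676 CPM in mutant 1 h male 3 (others 555 to 597). Neto1 was at 141 CPM in WT 3 h female 1 (others 102 to 116). The 8 values fell in 8 different libraries.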

How the results depend on the processing

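Of the 12 counts of genes called, those of the 3 genotype comparisons at single times, WT at 1 h and 3 h, mutants at 3 h and both response differences stayed at 0 under every alternative run. In mutants at 1 h the count fell from 1 to 0 with all 36 libraries in one fit. Over all times the genotype count went from 0 to 1 in DESeq2 with sex and in DESeq2 without a covariate, and between 0 and 1 with single libraries omitted. The joint count at 1 h went from 0 to 1 in both DESeq2 fits, and between 0 and 1 with single libraries omitted, passing without WT 0 h female 2 (Grm2, adjusted p 0.0438). The joint count at 3 h went from 2 to 4 in DESeq2 without a covariate, to 1 without a filter and to 1 with the 24 libraries of the 2 time points, and between 0 and 3 with single libraries omitted. Over all genes, DESeq2 with sex called 363 against 54 by edgeR in mutants at 1 h, 408 against 208 for the joint 1 h and 803 against 434 for the joint 3 h comparison, DESeq2 without a covariate called 270 higher and 205 lower against 149 and 65 for the genotype over all times, and without the 2 libraries of discordant sex edgeR called 277 higher and 195 lower for the genotype and 407 for the joint 1 h comparison. With the sex and replicate number as a replicate block the joint 3 h count was 3, with Grin1 added (0.11, adjusted p 0.0339) to Grm2 and Grm3, the call of Grm2 in mutants at 1 h was kept (0.36, adjusted p 0.0306), and no other call among the 30 genes changed. The direction of each of the 24 gene values followed was the same under all alternatives run. The cause of the lost and gained calls was not tested. In the 1 comparison simulated, mutant against WT at 0 h, 4 of 50 genes changed by a log2 fold of 0.25 were called.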
